A study of Homo sapiens with 10 samples.

Results

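The regions described here are the BRD9 and SMARCB1 peaks on human chromosome 19 (build hg19) that lie outside the 8 intervals holding its clusters of zinc finger genes. A peak was a member when it overlapped none of the intervals from 9.2 to 10, 11.6 to 12.8, 19.7 to 24.4, 35.1 to 35.5, 36.6 to 38.4, 44.3 to 45, 52.3 to 54.0 and 56.1 to 59.1 Mb. Of the 543439 peaks in 8 lists, 14753 were members. Overlapping BRD9 peaks were merged over the 6 BRD9 lists, which gave 2979 member regions of 119940 in all. SMARCB1 peaks were merged likewise, and 2114 of the 87773 SMARCB1 regions held by both SMARCB1 replicates were members. Chromosome 19 outside the intervals spans 44.8 Mb, counted to the end of its last peak and with the centromere included. The zinc finger intervals span 14.3 Mb.

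The peaks come from CUT&RUN, in which an antibody steers a nuclease to cut out the DNA around its target. It was done in G401 cells, from a rhabdoid tumour of the kidney, whose genotype is given as SMARCB1(-/-) in every sample. Doxycycline switched on GFP as the control or SMARCB1 itself. BRD9 was mapped in 3 samples with GFP and in 3 with SMARCB1 induced, and SMARCB1 in 2 samples with SMARCB1 induced. All groups share 1 cell line, and the labels state neither the length nor the dose of induction, nor whether replicates were separate cultures, so the p-values below measure only the spread between these samples. The other 2 samples of the series, SMARCB1 antibody after GFP induction and IgG after SMARCB1 induction, were not analysed by themselves. Per the file names, GFP-induced cells were the control against which the SMARCB1 peaks were called.

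SMARCB1 is a core subunit of the canonical and the PBAF forms of SWI/SNF, the ATP-driven remodellers that slide and evict nucleosomes. Its loss is the defining lesion of rhabdoid tumours. BRD9 is a bromodomain subunit that marks the non-canonical form (ncBAF), which assembles without SMARCB1. Chromosome 19 is the most gene-dense human chromosome, and its large families of KRAB zinc finger genes sit in tandem clusters under heterochromatin. Between those clusters lie gene-rich stretches, and the centromere with its satellite flanks.

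The BRD9 libraries held 10.1 to 13.9 M reads and the SMARCB1 libraries 59.7 and 64.2 M. Peaks were called separately in each sample, all 6 BRD9 lists against a control library of 23.1 M reads, and each file holds only peaks past a similar score, so a peak missing from a list means that the caller's threshold was not reached there and not that the protein was absent. A BRD9 member peak had a median of 21.3 ± 1.53 reads with GFP and 24.3 ± 2.08 with SMARCB1 induced (SD, n = 3 lists each).

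With SMARCB1 induced, chromosome 19 outside its zinc finger clusters held fewer BRD9 peaks, and the difference lay in peaks away from SMARCB1 regions. The 3 GFP lists had 1382, 1820 and 1519 member peaks, and the 3 SMARCB1 lists 1197, 1184 and 1191. The groups did not overlap, and the SMARCB1 lists lay close together. On average a GFP list had 1574 ± 224 and a SMARCB1 list 1191 ± 6.51 member peaks (SD, n = 3), which is a log2 ratio of -0.40. The members were chosen by the positions of the peak calls themselves, so their number and length are descriptions and were not tested. Members made up 4.03% ± 1.07 of a GFP list and 2.79% ± 0.195 of a SMARCB1 list.

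Covered length gave the same order. Member peaks covered 1.46, 1.28 and 1.54 Mb in the GFP lists and 1.22, 1.02 and 1.05 Mb in the SMARCB1 lists, again without overlap. The log2 ratio of the means was -0.38. The median member peak was 590 ± 90.7 bp wide with GFP and 629 ± 46.9 bp with SMARCB1 induced, and its median density was 3.31 ± 0.0712 and 3.20 ± 0.218 RPKM (reads per kb of peak, scaled to 1 M library reads). Width and density overlapped between the groups. Each list holds only peaks past a similar score, so this likeness of called peaks cannot show whether levels differed. The other chromosomes (the other numbered ones and X) had 34278 ± 5082 and 38788 ± 2927 peaks, and there the groups overlapped.

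Splitting the members by SMARCB1 separated 2 patterns. A SMARCB1 region here is the union of overlapping SMARCB1 peaks that holds a peak of both replicates, and an overlap of 1 bp counted. Away from these regions, the GFP lists had 824, 892 and 830 member peaks and the SMARCB1 lists 414, 399 and 405. The groups lay far apart relative to their spread, with 2.09 times as many such peaks under GFP (849 ± 37.6 against 406 ± 7.55). At SMARCB1 regions, the GFP lists had 558, 928 and 689 peaks and the SMARCB1 lists 783, 785 and 786. Here the groups overlapped, since the second GFP list held more than any SMARCB1 list and the other two fewer. The log2 ratio of the means was 0.11, and it was 0.33 without the second GFP list. The counts were 725 ± 188 and 785 ± 1.53.

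**Figure D1:**
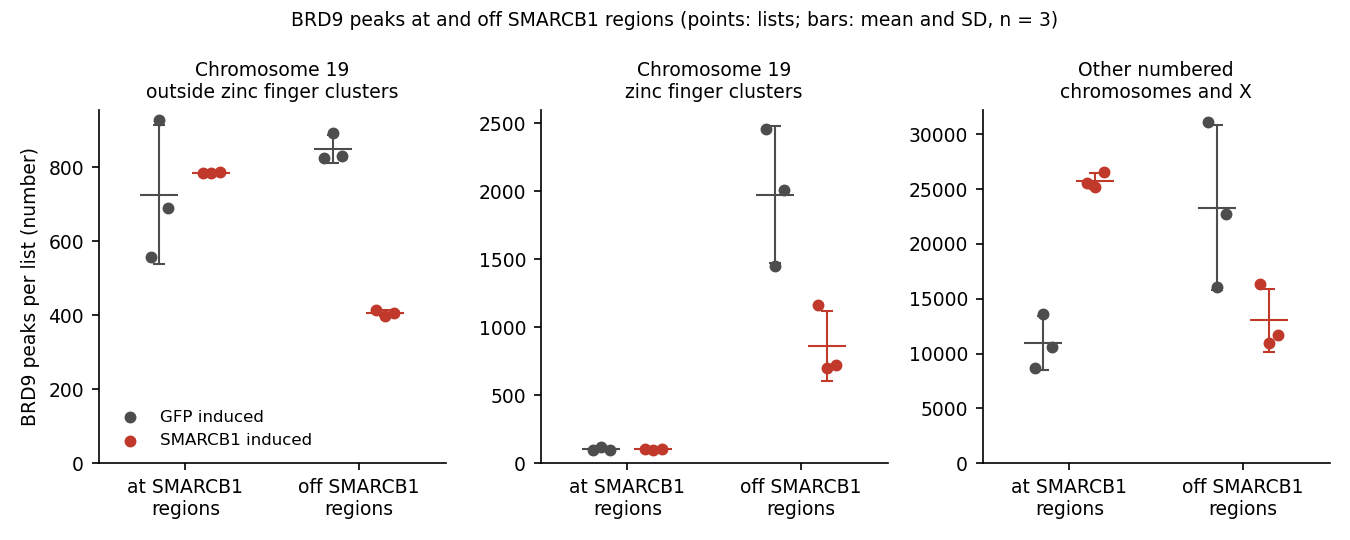
BRD9 peaks per list (y axis, number) at and off SMARCB1 regions, in 3 panels with separate scales for the members, the zinc finger clusters of chromosome 19 and the other chromosomes. Points are lists (grey, GFP induced; red, SMARCB1 induced), and bars are the mean and SD of 3 lists. Off SMARCB1 regions the members go from 849 to 406 on average without overlap, while at SMARCB1 regions they overlap (725 and 785) and the other chromosomes go from 10963 to 25769.

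The share of member peaks that overlapped a SMARCB1 region was 40.4, 51.0 and 45.4% in the GFP lists and 65.4, 66.3 and 66.0% in the SMARCB1 lists. Every SMARCB1 list was above every GFP list. The mean difference was 20.3 percentage points (two-sided exact permutation test of 3 lists against 3, p = 0.1, adjusted p = 0.133 over 4 tests by Benjamini-Hochberg). A p of 0.1 is the smallest that 3 against 3 allow, so no comparison of this kind could pass 0.05. The control library moved with this split. It had a median of 0.756 and 0.806 RPKM under member peaks at SMARCB1 regions (GFP and SMARCB1 lists) and 0.302 and 0.320 RPKM under those away from them, and its part in the result was not tested.

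Seen from the SMARCB1 side, the 2114 member regions of SMARCB1 included 485, 751 and 588 with a BRD9 peak in the GFP lists, and 678, 666 and 664 in the SMARCB1 lists. These are 28.8% ± 6.34 and 31.7% ± 0.358, groups that overlapped (difference 2.90 points, exact permutation p = 0.5, adjusted p = 0.5). Without the first GFP list, which had the fewest, the difference was -0.0079 points. On the other chromosomes the same share was 8.78% ± 1.99 with GFP and 21.8% ± 0.515 with SMARCB1 induced. The GFP value of the members was thus already above the SMARCB1-induced value elsewhere, and the 2 values of the members were close to each other.

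The other chromosomes were therefore set beside the members. At SMARCB1 regions, all 22 had more BRD9 peaks with SMARCB1 induced, without overlap of the lists. Their log2 ratios ran from 0.81 on chromosome 20 to 1.68 on chromosome 18 with a median of 1.25, and the value of 0.11 for the members lies below all of them. The zinc finger clusters of chromosome 19 had -0.04. Off SMARCB1 regions, all 22 chromosomes had a mean below that of GFP, from -1.49 on chromosome 22 to -0.52 on chromosome X with a median of -0.87. The members, at -1.06, lie within that range. The lists of the 2 groups did not overlap off SMARCB1 regions on 12 of the 22 chromosomes and overlapped on the rest.

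A ratio within each list leaves out its total number of peaks. For every 100 BRD9 peaks at SMARCB1 regions on the other chromosomes, the members held 6.43, 6.82 and 6.50 in the GFP lists and 3.06, 3.12 and 2.96 in the SMARCB1 lists. The groups did not overlap, and the log2 difference was -1.11. This restates the counts above within each list and is likewise a description. Off SMARCB1 regions the same ratio was 2.65, 5.54 and 3.65 against 2.53, 3.63 and 3.46. Those values overlapped (log2 difference -0.25).

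The share of peaks at SMARCB1 regions tells the same difference in another unit. The members exceeded the other chromosomes by 18.6, 5.19 and 13.6 points in the GFP lists, and differed from them by 4.39, -3.26 and -3.42 points in the SMARCB1 lists. The gap changed by -13.2 points without overlap between the groups (exact permutation p = 0.1, adjusted p = 0.133). Without the stretch that holds the centromere, from 24.4 to 35.1 Mb, it changed by -7.11 points (exact permutation p = 0.2) and the groups were no longer fully apart. Against the zinc finger clusters the members led by 40.3 ± 3.49 points with GFP and by 54.9 ± 1.86 points with SMARCB1 induced (change 14.7 points, exact permutation p = 0.1, adjusted p = 0.133).

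**Figure D2:**
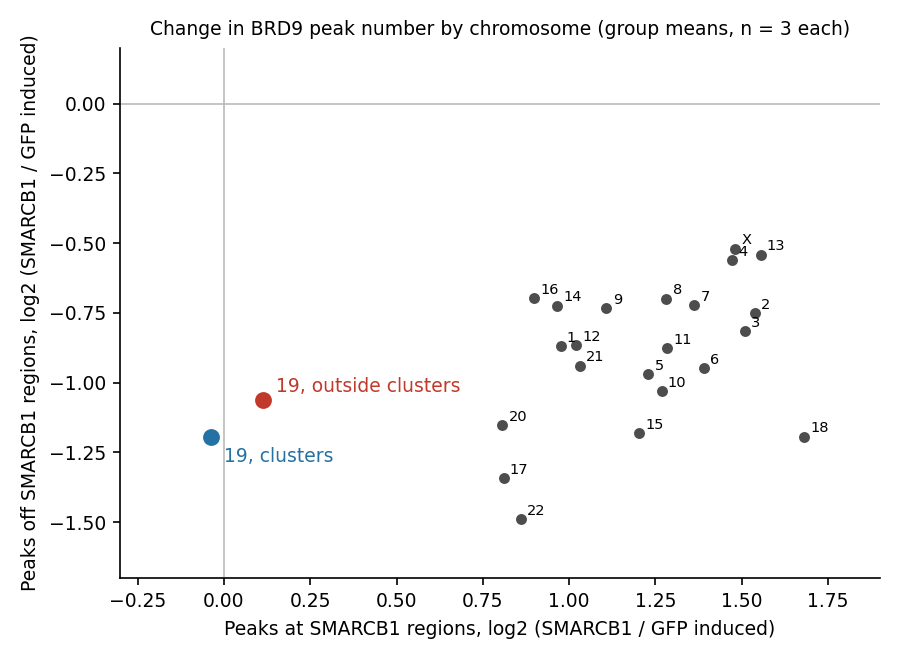
Log2 ratio of mean BRD9 peak number, SMARCB1 over GFP induced (3 lists each), at SMARCB1 regions (x axis) against off SMARCB1 regions (y axis). Small grey points are the 22 other chromosomes, and large points the members (red) and the zinc finger clusters (blue). The members sit at 0.11 and -1.06, left of every other chromosome on the x axis and within their range on the y axis.

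BRD9 calls were denser on the members than on the other chromosomes in both groups. Per Mb, the GFP lists held 35.1 ± 5.0 member peaks against 11.5 ± 1.71 on the other chromosomes, and the SMARCB1 lists 26.6 ± 0.145 against 13.0 ± 0.984. The zinc finger clusters held 145 ± 34.6 and 67.3 ± 18.4. Density of calls is part of what defined these regions and is given for scale only.

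Merged over lists, the members were less often gained and more often lost than the genome's BRD9 regions. Gained means here that all 3 SMARCB1 lists and no GFP list called the region, and lost that all 3 GFP lists and no SMARCB1 list did. Of the 2979 member regions, 89 (2.99%) were gained and 70 (2.35%) were lost. Over all 119940 regions 6.85% were gained and 1.04% lost, so the members stood below the background for gains and above it for losses. On the other chromosomes 7947 of 110037 regions (7.22%) were gained and 1034 (0.940%) lost, and in the zinc finger clusters 13 and 106 of 3480. With at least 2 of 3 lists required, 181 member regions (6.08%, background 12.6%) were gained and 298 (background 5.7%) lost. The order of gains and losses among the members thus turned with the number of lists required. It also turned among peaks at or above the median score of their list, with 52 gained and 58 lost. That count was not made over all regions.

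Constant regions made up more of the members than of the genome. All 6 lists held a peak in 306 member regions (10.3%, background 4.67%), and 1 list alone in 1568 (52.6%, background 62.9%). Regions seen in 1 or more GFP lists and no SMARCB1 list numbered 1440 (48.3%, background 42.8%). Those seen in 1 or more SMARCB1 lists and no GFP list numbered 607 (20.4%, background 38.4%).

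**Figure D3:**
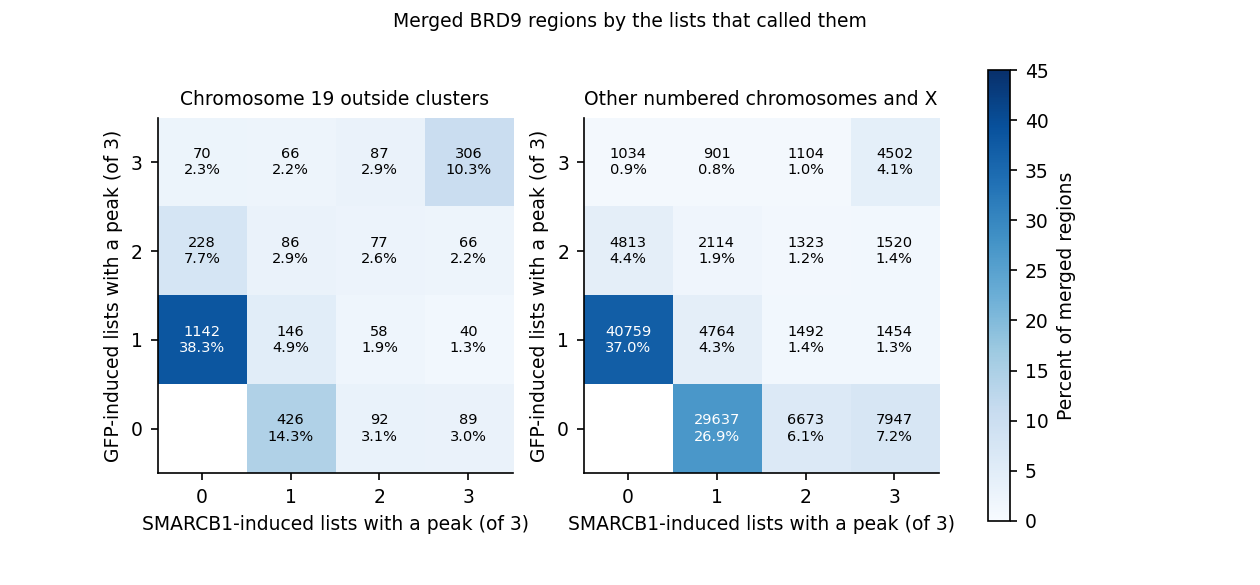
Merged BRD9 regions by the number of GFP lists (y axis, 0 to 3) and SMARCB1 lists (x axis, 0 to 3) that held a peak, for the members (left) and the other chromosomes (right); cells give the number and percent of regions, and shading the percent. The cell for 3 SMARCB1 lists and 0 GFP lists holds 89 regions on the left and 7947 on the right, and the cell for 3 and 3 holds 306 and 4502.

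Gained and lost members differed in how they lay to SMARCB1. Of the gained regions 84 of 89 (94.4%, 95% Wilson interval 87.5 to 97.6%) overlapped a SMARCB1 region. Of the lost regions 17 of 70 did (24.3%, 15.8 to 35.5%). Regions held by all 6 lists overlapped one in 241 of 306 cases (78.8%, 73.8 to 83.0%). The intervals cover counting error only, and neighbouring regions are not independent. On the other chromosomes the same shares were 97.8% for gained, 32.4% for lost and 67.0% for constant regions.

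Following the peaks of one group into the other gave the same picture. Of the GFP member peaks off SMARCB1 regions, 40.5% ± 2.99 overlapped a peak of any SMARCB1 list, while 62.6% ± 2.74 overlapped a peak of another GFP list. Of the GFP member peaks at SMARCB1 regions, 78.5% ± 3.50 overlapped a peak of a SMARCB1 list. In the other direction, 70.6% ± 0.747 of the SMARCB1-induced member peaks at SMARCB1 regions overlapped a peak of a GFP list. On the other chromosomes that share was 34.1% ± 0.527, so most such peaks there had no counterpart under GFP and most of the members did.

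The 6 highest ranked gained members, by mean rank of the authors' score, all overlapped a SMARCB1 region. The first was chr19:32863651-32865287, with 7.28, 7.92 and 6.15 RPKM in the SMARCB1 lists over 1.17 RPKM in the control library, and no peak in any GFP list. SMARCB1 itself was at 2.49 and 2.73 RPKM there. Next came chr19:39148101-39151013, with 4.82, 6.03 and 4.98 RPKM, and chr19:15938603-15940671, with 6.22, 6.92 and 6.62 RPKM. The other three were chr19:28168826-28170726 (5.30 ± 0.284 RPKM), chr19:41468123-41469323 (5.63 ± 0.564 RPKM) and chr19:14249376-14251551 (4.02 ± 0.719 RPKM). A gained region has no GFP value, since reads are given only for called peaks, so no fold change can be had for it.

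Lost members had median densities of 3.20, 3.14 and 3.22 RPKM in the GFP lists, and gained members 3.46, 3.75 and 3.22 RPKM in the SMARCB1 lists, values that overlap. The highest ranked lost region was chr19:17941521-17942151, with 4.04, 4.99 and 4.03 RPKM in the GFP lists, from 26, 35 and 25 reads. It overlapped a SMARCB1 region, as did chr19:12886186-12886879 (4.14 ± 0.0938 RPKM) and chr19:2034776-2036635 (3.56 ± 0.348 RPKM). The 3 others did not, namely chr19:7094159-7095406 (3.44 ± 0.253 RPKM), chr19:663176-664176 (4.08 ± 0.121 RPKM) and chr19:8097679-8100149 (3.42 ± 0.248 RPKM). The last of these had a peak of 1 SMARCB1 replicate and not of the other. The first gained region had a mean rank of 1331 in its lists and the first lost region 5328 in its own, and the medians over all gained and lost members were 17034 and 18125. Ranks come from lists of different lengths and are descriptions.

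The 306 constant regions each have reads in all 6 lists, so their densities can be compared within called peaks. Those reads come only from each list's own peaks past its threshold. A region that missed the threshold in any list is left out, so larger changes can escape this comparison. Read density was tested with edgeR's quasi-likelihood test on the deposited read counts, with library size and called length as an offset, over all 5598 constant regions of the genome. Of the members, 4 fell (1.31%, background 1.11%) and 0 rose (background 0.411%) at an adjusted p under 0.05. The share that fell was close to the background. At an unadjusted edgeR p under 0.05, 48 of the 306 members differed, against 1017 of all 5598 constant regions. DESeq2 called 5 members lower and 1 higher (58 and 101 of all 5598), and TMM scaling 3 and 1 (49 and 90 of all). With an offset without called length, 22 members were lower and 2 higher (349 and 225 of all), so the calls depend on that choice. The median log2 difference was -0.18 over the members and -0.19 over all constant regions, and TMM moved these to -0.03 and -0.04. Of the members 254 had a value below 0 (170 with TMM), so the general shift depends on the scaling, and single regions are better read against it.

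**Figure D4:**
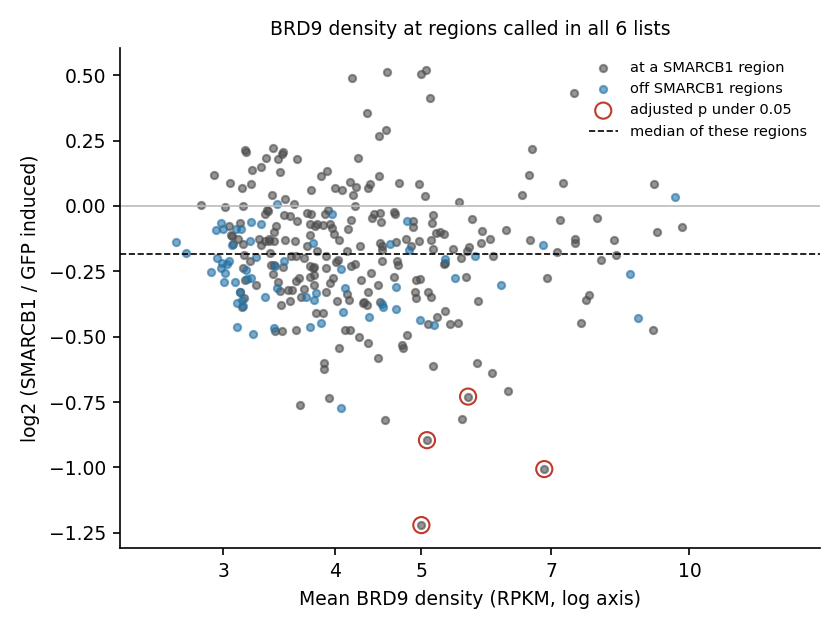
Log2 ratio of BRD9 read density, SMARCB1 over GFP induced (y axis), against mean density in RPKM (x axis, log scale) for the 306 member regions called in all 6 lists. Grey points overlap a SMARCB1 region, blue points do not, red rings mark an adjusted p under 0.05 and the dashed line is the median of -0.18. The 4 ringed regions lie between -0.73 and -1.22, all at SMARCB1 regions, as are 241 of the 306.

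The 4 regions that fell lay in 2 places, and all overlapped a SMARCB1 region, as did 241 of the 306 tested members. Over the genome, 58 of the 62 constant regions that fell overlapped one. At chr19:43811896-43832152, a region of 20256 bp, density was 8.37, 10.6 and 8.56 RPKM in the GFP lists and 4.74, 5.0 and 3.98 RPKM in the SMARCB1 lists. The groups did not overlap (log2 -1.01, SE 0.151, edgeR adjusted p = 0.00621). A neighbour at chr19:43775091-43779386 had 7.06 ± 0.771 and 4.23 ± 0.304 RPKM (log2 -0.73, SE 0.164, edgeR adjusted p = 0.0355). Near 28.7 Mb, chr19:28719924-28722085 had 5.85, 7.95 and 7.17 RPKM with GFP and 2.79, 3.13 and 3.13 RPKM with SMARCB1 induced. Its log2 difference was -1.22 (SE 0.209, edgeR adjusted p = 0.00944). The 4th, chr19:28808785-28816738, had 6.60 ± 1.35 and 3.55 ± 0.535 RPKM (log2 -0.90, SE 0.180, edgeR adjusted p = 0.0203). Each lost its call when some single list was left out, with edgeR adjusted p up to 0.0940, 0.265, 0.103 and 0.232 in the order given here. With SMARCB1 list 1, 2 or 3 left out, no member was called lower (3, 0 and 0 of all 5598 constant regions). Without the first GFP list 11 members were called lower (205 of all), and without the second 27 (470 of all).

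Among the constant regions none of the members passed the edgeR test as higher. The 5 with the smallest edgeR p in that direction all overlapped a SMARCB1 region, as did 241 of the 306 tested members. The log2 differences of these 5 ran from 0.43 to 0.52 with edgeR adjusted p from 0.175 to 0.273. Of these, chr19:43391176-43394065 had 3.44, 4.27 and 4.87 RPKM with GFP and 6.06, 5.36 and 6.0 RPKM with SMARCB1 induced, and chr19:15943319-15949126 had 4.17 ± 0.368 and 5.94 ± 0.339 RPKM. The latter is a near neighbour of the gained region at chr19:15938603-15940671. In both of these the lists of the 2 groups did not overlap. Both were picked by edgeR p on these same values and neither passed, so that separation is no support for a rise.

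Along the chromosome the members fall into 9 stretches between zinc finger intervals, numbered from the end of the short arm. The number of BRD9 peaks off SMARCB1 regions was lower with SMARCB1 induced in every stretch but the last, which is the tip of the long arm with 1 or 2 peaks per list. In the first, from 0 to 9.2 Mb, the GFP lists had 202, 202 and 209 such peaks and the SMARCB1 lists 72, 60 and 73. In the third, from 12.8 to 19.7 Mb, the values were 86, 116 and 92 against 19, 23 and 26. In the seventh, from 45 to 52.3 Mb, they were 105, 117 and 109 against 28, 27 and 31. The groups did not overlap in any of the first 8 stretches, although the fifth held at most 6 such peaks in a list.

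The fourth stretch, from 24.4 to 35.1 Mb, holds the centromere and stood apart. Its lists had 261, 263 and 245 peaks off SMARCB1 regions with GFP and 232, 228 and 199 with SMARCB1 induced, means of 256 and 220. The groups did not overlap, but the ratio of the means was nearer to 1 than in any other of the first 8 stretches. In the SMARCB1 lists these peaks are set against 414, 399 and 405 member peaks off SMARCB1 regions in all. Without the stretch, the log2 ratio of member peaks off SMARCB1 regions was -1.67 in place of -1.06.

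**Figure D5:**
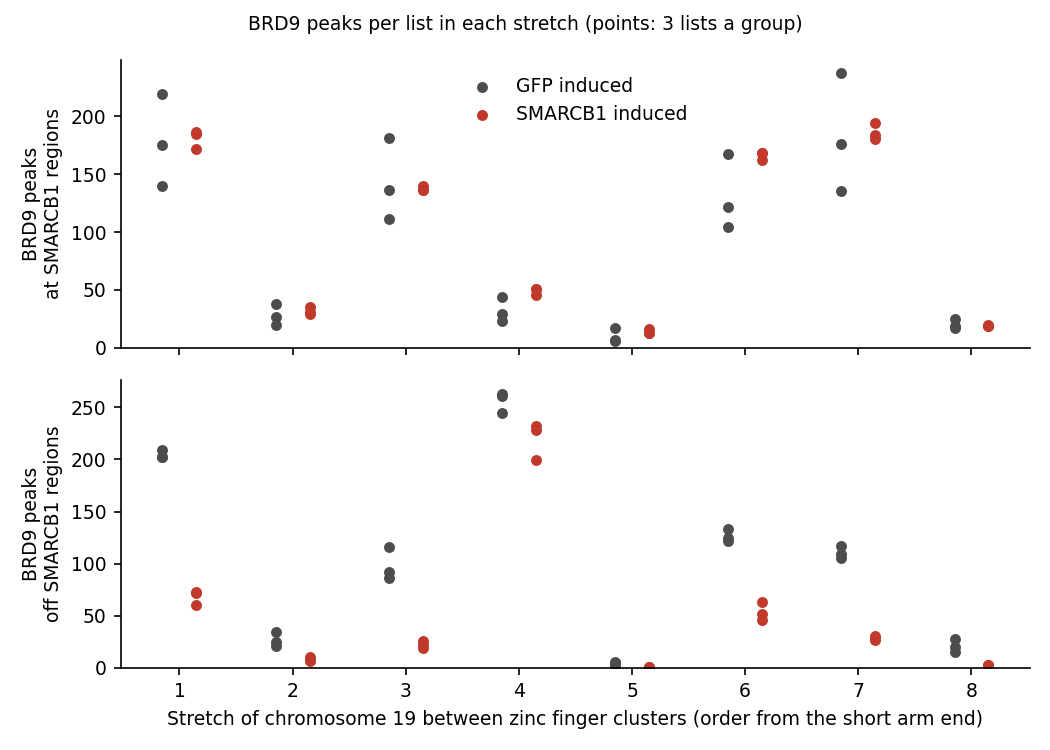
BRD9 peaks per list (y axes, number) in the first 8 stretches of chromosome 19 between zinc finger intervals (x axis, in order from the short arm end), at SMARCB1 regions (top) and off them (bottom). Points are lists (grey, GFP induced; red, SMARCB1 induced). In the bottom panel the red points lie below the grey in all 8 stretches, by the widest margin in the first and least, for its height, in the fourth, which holds the centromere.

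Within the fourth stretch the BRD9 peaks crowded on both sides of the centromere, partly where SMARCB1 was not called. Counts per bin of 1 Mb were not scaled to the sequence available in it. No list had a member peak starting between 25 and 27 Mb. Between 24 and 25 Mb, on the short arm side, the GFP lists had 63, 75 and 63 member peaks and the SMARCB1 lists 50, 71 and 56. Between 27 and 28 Mb, on the long arm side, they had 69, 111 and 83 against 85, 97 and 83. Neither bin holds a peak in the 2 lists of the SMARCB1 antibody. Those libraries are deeper and were called against another control library, of 49.6 M reads and, per the file names, from GFP-induced cells. Why no peak was called there was not tested. The next bin, from 28 to 29 Mb, held the most BRD9 peaks of the stretch, with 93, 95 and 93 against 107, 82 and 89, and there the SMARCB1 antibody had 92 and 93 peaks. The control library had a median of 0.192 to 0.307 RPKM under the BRD9 peaks of the first bin and 0.293 to 0.423 RPKM under those of the second. In the second bin this was above the median under all member peaks off SMARCB1 regions in each list, which ran from 0.266 to 0.359 RPKM. The highest ranked constant member lies in the first bin. It is chr19:24593342-24615233, a region of 21891 bp with 7.11, 4.62 and 6.22 RPKM in the GFP lists and 5.02, 5.32 and 4.50 RPKM in the SMARCB1 lists. These values overlap, and the control library had 0.599 to 0.714 RPKM there.

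The second constant member by rank lies just beyond, at chr19:28203999-28259801. It spans 55802 bp, overlaps a SMARCB1 region and had 8.72 ± 2.06 RPKM with GFP and 6.40 ± 0.446 RPKM with SMARCB1 induced. The lowest GFP and the highest SMARCB1-induced value nearly met, at 6.92 and 6.91 RPKM.

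The densest Mb of the members was that from 43 to 44 Mb, in the stretch between 38.4 and 44.3 Mb. The GFP lists had 127, 133 and 126 BRD9 peaks there and the SMARCB1 lists 117, 116 and 120. They are 7.31 to 10.1% of a list's member peaks. The split by SMARCB1 showed in this Mb as well, with 67, 53 and 60 peaks off SMARCB1 regions under GFP against 28, 27 and 32. At SMARCB1 regions there were 60, 80 and 66 against 89, 89 and 88, and here the groups did not overlap. The remaining 4 of the 6 top constant members also lie in this Mb. The one with the highest mean density, chr19:43506051-43511526, had 7.56, 13.5 and 9.15 RPKM with GFP and 9.52, 10.1 and 8.99 RPKM with SMARCB1 induced, values that overlap.

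SMARCB1 called there too. The 5 member SMARCB1 regions ranked highest by score all lie between 43 and 44 Mb. The first, chr19:43683401-43690976, had 2.05 and 2.41 RPKM in the 2 replicates over 0.540 RPKM in the control library. The second, chr19:43333951-43339976, had 2.98 and 3.08 RPKM. The remaining 3, at chr19:43353626-43359401, chr19:43400476-43406426 and chr19:43433976-43440357, averaged 2.21, 2.91 and 2.39 RPKM. Each of the 5 held a BRD9 peak in all 6 lists.

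SMARCB1 occupied the members densely. Replicate 1 had 2863 and replicate 2 had 3597 member peaks, which merged to 3920 regions, 2114 of them in both replicates. That is 47.2 regions per Mb against 28.7 on the other chromosomes and 10.1 in the zinc finger clusters. Member SMARCB1 regions were narrower than elsewhere, with a median of 1025 bp against 1225 bp. Any BRD9 region overlapped 1199 of them (56.7%), against 36.3% on the other chromosomes and 88.3% in the zinc finger clusters. The stretches differed in SMARCB1, from 14.4 regions per Mb in the fourth to 69.5 in the seventh, the tip aside, where there were 0.

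Member BRD9 peaks off SMARCB1 regions lay at a median of 9.54, 9.54 and 9.15 kb from the nearest SMARCB1 region in the GFP lists and 47.6, 61.6 and 23.8 kb in the SMARCB1 lists, without overlap of the groups. Outside the fourth stretch, the median distance to the nearest SMARCB1 region was 4.75, 5.0 and 4.64 kb in the GFP lists and 5.69, 5.26 and 6.0 kb in the SMARCB1 lists. There 50.1 to 52.0% of the peaks lay within 5 kb in the GFP lists and 45.6 to 49.1% in the SMARCB1 lists. The groups stayed apart, but most of the gap in median distance was seen only with the fourth stretch included.

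At the edges of the zinc finger intervals the BRD9 calls were sparser on the members' side. Within 100 kb outside an interval edge, the GFP lists had 68, 53 and 61 BRD9 peaks and the SMARCB1 lists 37, 40 and 39. Within 100 kb inside, they had 174, 159 and 177 against 123, 76 and 94. The 2 lists of the SMARCB1 antibody had 64 and 87 peaks outside and 61 and 78 inside. Replicate lists of a group shared a mean of 0.443 of the bases covered by either of a pair (Jaccard index, 0.364 to 0.487 over 6 pairs), and lists of different groups 0.351 (0.315 to 0.398 over 9 pairs).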

How the data were processed

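CUT&RUN peak lists of 8 of the 10 samples were used, 1 list per sample. Each list has 18 columns. Per the file headers it gives each peak's position, raw read counts in the sample and in a control library, and both as RPKM, which were recomputed from the deposited counts. The deposited log2 fold over control was not used, and the authors' score, −log10 of the false discovery rate, ranked the peaks (lowest score 3.98 to 4.00 in every list). Per the submitters' processing notes BWA 0.7.12-r1039, SAMtools, bedtools, DiffBind and edgeR were used, with hg19, GRCh37 and ASM584v2 named as builds. The peak caller is not given in the sources used here. Per the file names the SMARCB1 lists are on hg19 with GFP-induced cells as the control. The BRD9 lists name neither, and hg19 is assumed for them from the unplaced sequences and chromosome ends they hold.

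Groups and replicate numbers came from the sample titles. BRD9 peaks of the 6 lists were merged where they overlapped, within the members, the clusters and the rest separately (1 region that crossed an interval edge was split). For peak number and covered length, log2 ratios of the group means are given with no test. Two-sided exact permutation tests were used for shares and adjusted over the 4 of them. Read counts at regions called in all 6 lists were tested with edgeR 4.0.16 (glmQLFit, glmQLFTest), offset by the log of library size times called length, adjusted by Benjamini-Hochberg over 5598 regions at a threshold of 0.05. A region's SE was taken from its log2 difference and the F statistic. Alternatives tried were peaks at or above a list's median score, an overlap of at least 50%, SMARCB1 peaks of either replicate, merging within 500 bp, intervals widened by 0.1 Mb, fewer lists required, TMM, DESeq2 1.42.0, limma 3.58.1 on log2(RPKM + 0.1) or log2(RPKM + 1), at least 20 reads in every list, an offset without called length, each replicate left out, and a replicate block. The stretch without the centromere, equal lists of 30000 peaks, a single list as sufficient, the ratios to the other chromosomes and the bins of 1 Mb were chosen after the values were seen.

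Named regions were the 6 gained, 6 lost and 6 constant regions and the 5 SMARCB1 regions with the best mean rank by score, and the 5 constant regions with the smallest edgeR p in each direction. The members and lists were chosen with earlier results of these data known. An annotation or genome of hg19 was not used here, so gene names, promoter shares and sequences are not reported. The scripts were tested on simulated data. Python 3.11.15, numpy 2.4.6, pandas 2.3.3, scipy 1.17.1, matplotlib 3.10.9 and R 4.3.3 were used.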

Additional observations from a re-analysis of the deposited data

How the results depend on the processing

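The share of member peaks at SMARCB1 regions stayed 17.7 to 26.4 points higher with SMARCB1 induced under all 13 alternatives. The log2 ratio of member peak number was -0.57 for peaks at or above the median score of their list and -0.56 for the 30000 highest-scoring peaks, and that of peaks off SMARCB1 regions was -1.32 and -1.29 there and -1.67 without the stretch holding the centromere. The small difference in SMARCB1 regions holding a BRD9 peak reversed to -0.66 points (upper part by score), -0.128 points (SMARCB1 peaks of either replicate) and -0.0079 points (without GFP replicate 1), and with 1 list left out it ran from -0.0079 to 6.28 points. Peaks at SMARCB1 regions had log2 ratios from -0.09 to 0.33, below 0 at -0.09 (at or above the median score), -0.03 (30000 peaks) and -0.04 (without GFP replicate 1), so their direction is not settled. The gap to the other chromosomes in the share at SMARCB1 regions changed by -7.11 points without the centromere stretch (exact permutation p = 0.2, groups no longer apart) and by -17.5 to -10.1 points under the 12 other alternatives.

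Gained and lost regions numbered 52 and 58 among peaks at or above the median score, which turned their order. Gained regions numbered 181 with at least 2 of 3 lists and 607 with at least 1. Lost regions numbered 298 with at least 2 lists and 1440 with at least 1, and 85 to 158 with 1 list left out. Over all 119940 regions, 15138 were gained and 6839 lost with at least 2 lists, and 46070 and 51362 with at least 1. The other counts of gained and lost regions were not made over all regions. Constant members lower in density numbered 22 with an offset without called length (349 of all 5598 constant regions). With 1 list left out they numbered 0 to 27 (0 to 470 of all). Members higher in density numbered 1 with TMM (90 of all), 1 with DESeq2 (101) and 2 without called length (225). With 1 list left out they numbered 0 to 3 (0 to 194 of all). Counts of gained and lost regions with a list left out ask for fewer lists by construction. The density fits with a list left out kept the same constant regions. The cause of their moves and of the others was not tested.

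Same-numbered lists of the 2 groups were checked for pairing. Over 5598 regions their deviations in density correlated at 0.0835, 0.0418 and 0.0309, under the limit of 0.1 set for pairing. In density every list correlated best with its own number, which is a hint from the data only. In calls, over 119939 regions, same-numbered lists correlated at 0.0105, 0.00692 and 0.00162. There GFP list 2 correlated better with SMARCB1 list 3 (0.00947), and GFP list 3 with SMARCB1 list 1 (0.00445). With the replicate block, 14 members were lower in density (230 of all 5598 constant regions). There 221 member regions were gained and 364 lost (same direction in at least 2 of 3 pairs and the opposite in none). The same counts were not made over all regions, so these show nothing particular to the members. In the paired sign-flip form of the permutation tests p was 0.25, 0.75, 0.25 and 0.25, where 0.25 is the smallest that 3 pairs allow. Depth limits what can be said of single members, since the median member peak in a BRD9 list rests on fewer than 30 reads.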

Other observations

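Across the numbered chromosomes and X other than 19, 8 of 22 had fewer BRD9 peaks with SMARCB1 induced, from a log2 ratio of -0.52 on chromosome 21 upward, but in each of these 8 the lists of the groups overlapped, whereas those of the chromosome 19 members did not. The zinc finger clusters of chromosome 19 did not overlap either, at a log2 ratio of -1.11. The number of member peaks had a SD of 6.51 over the SMARCB1-induced lists and 224 over the GFP lists, while on the other chromosomes the SDs were 2927 and 5082. Equal numbers are not equal peaks: pairs of SMARCB1-induced lists shared 0.470 to 0.487 of the member bases covered by either, and GFP lists 1 and 3 shared 0.479. No test of the difference in spread was made.

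Among SMARCB1-induced member peaks away from SMARCB1 regions, 80.7% ± 2.16 overlapped a peak of a GFP list, more than the 67.0% ± 3.25 that overlapped a peak of another SMARCB1-induced list. On the other chromosomes the values were 51.9% ± 2.97 and 41.2% ± 7.15. A list has 3 lists of the other group to overlap and 2 of its own, so the shares are not on equal terms.

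The first stretch of the short arm held the most lost members, 25 of 70, against 14 of the 89 gained ones. In the sixth stretch, which holds the bin from 43 to 44 Mb, the counts were 9 lost and 25 gained. Regions differed in number between the stretches as well, with 787 in the first and 476 in the sixth.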
